A study of Mus musculus with 12 samples.

Results

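Maternally methylated imprinting control regions were read in 12 methylation libraries of mouse bone marrow as 10 windows named after Kcnq1ot1, Snrpn, Peg3, Peg10, Mest, Grb10, Plagl1, Impact, Igf2r and Zrsr1. The members are the CpGs inside 10 fixed intervals of the mouse build mm9 that had at least 10 reads in any library, with the strands of a CpG added. This gave 388 CpGs of 2102125 autosomal CpGs listed in any library. Of these, 233 had at least 10 reads in all 12 libraries and were tested, among 916381 such CpGs in all. The methylation level is the percent of reads in which the cytosine was read as methylated, and a point is 1 percentage point of it.

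The cells were sorted as LSK, the fraction without lineage markers that carries Sca1 and cKit and holds blood stem and early progenitor cells, from C57BL/6 mice aged 6 months whose mutations were conditional and specific to blood-forming tissue. Each of 4 groups had 3 libraries: the leukemic double mutant (Tet2-/- with Nras G12D), the nonleukemic double mutant of the same genotype, Tet2-/- alone (called Tet2 KO) and Nras G12D alone. Tet2 is an enzyme that oxidises methylcytosine, and Nras G12D is an activated form of a signalling GTPase. The leukemic group was read from the prefix L of the titles together with the series design, since its genotype label is that of the nonleukemic group. The descriptions of these 3 libraries carry the code TN-BMT, which the labels do not explain, so a difference in how their cells were obtained cannot be told apart from leukemia here. The driver of the conditional alleles is not given in the sources used here, wild-type libraries were not analysed here, and the labels do not state that the replicates were separate animals. p-values therefore measure the spread between these libraries, which may be technical. Positions listed on the Y chromosome numbered 349 in nonleukemic replicate 1 and 360 and 251 in Tet2 KO replicates 1 and 2. All other libraries had 2 to 18. Sex was not part of the model, and its effect was not tested.

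An imprinting control region carries methylation on the copy inherited from a single parent, set in the germ line and kept in the body's cells after fertilisation. In the maternally methylated class the mark comes from the egg, and the unmethylated paternal copy often works as a promoter of a noncoding RNA or of the imprinted gene itself. The zinc finger protein ZFP57 is known to bind methylated copies at the hexamer TGCCGC and to protect them from loss in the early embryo. If every cell kept methylation on the maternal copy only, equal reading of both copies would give a level near 50%. The deposited values do not separate the parental copies, so a level is the share of methylated reads over both.

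To show what was read at such a region, the start of the Plagl1 and of the Zrsr1 region is printed as the 250 bases before each gene's start in RefSeq, build GRCm38.p6. These promoters were tied to the mm9 windows by the spacing of their CpGs and not by converted coordinates. Of 17 promoters tried, taken from 8 of the 10 loci and their known partner genes, only these 2 had a placement that matched in full. There each listed position inside the promoter, 19 in Plagl1 and 8 in Zrsr1, fell on a CpG of its sequence. Promoter CpGs without a listed position were not counted against a placement. The next best placement matched 50.0% of listed positions for Plagl1 and 37.5% for Zrsr1. Capitals mark the 5 CpGs of each that were tested. Both read 5′ to 3′ on the plus strand, Plagl1 at chr10:13090582-13090831 and Zrsr1 at chr11:22971755-22972004.
Plagl1: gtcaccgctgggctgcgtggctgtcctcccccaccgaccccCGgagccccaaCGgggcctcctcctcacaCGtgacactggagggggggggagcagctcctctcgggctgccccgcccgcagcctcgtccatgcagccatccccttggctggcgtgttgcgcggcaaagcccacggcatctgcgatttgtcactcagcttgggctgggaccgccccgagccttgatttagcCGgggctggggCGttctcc
Zrsr1: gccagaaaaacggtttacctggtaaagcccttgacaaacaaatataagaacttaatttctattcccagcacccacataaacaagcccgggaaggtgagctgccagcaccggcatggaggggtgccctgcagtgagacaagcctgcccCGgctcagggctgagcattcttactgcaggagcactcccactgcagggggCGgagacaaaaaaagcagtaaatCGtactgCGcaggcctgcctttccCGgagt
The motif CCGG, the cut site of the enzyme MspI and its own reverse complement, was found at 2 sites in the Plagl1 stretch and at 4 in the Zrsr1 stretch. Of 32851 RefSeq promoters of 300 bases, 47.1% hold it in their first 250 bases. The hexamer TGCCGC, searched on both strands, was found 1 time in Plagl1, on the minus strand, and not in the Zrsr1 stretch. In the same 250 bases, 8.68% of these promoters hold it. At the capital CpGs the level averaged 25.9% ± 8.79 in leukemic, 31.0% ± 13.0 in nonleukemic, 48.5% ± 1.26 in Tet2 KO and 28.1% ± 5.73 in Nras G12D libraries for Plagl1 (SD, n = 3 each). For Zrsr1 it averaged 26.9% ± 11.5 in leukemic, 42.0% ± 8.77 in nonleukemic, 50.2% ± 1.23 in Tet2 KO and 38.6% ± 7.51 in Nras G12D libraries (SD, n = 3 each). These stretches were chosen because they could be placed, and they cover 5 of the 38 tested CpGs of Plagl1 and 5 of the 45 of Zrsr1. The small SD of Tet2 KO at Plagl1 averages over unlike CpGs, whose Tet2 KO means ran from 28.8% to 62.1%. Over the whole Plagl1 window the order was the other way, with 33.1% ± 6.64 in Tet2 KO and 41.0% ± 10.1 in leukemic libraries.

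The 233 tested CpGs were almost all partly methylated. Averaged over the 12 libraries, 232 of them (99.6%) lay between 20% and 80%, against 68396 of all 916381 tested CpGs (7.46%). The median was 36.4%. A CpG of the Grb10 window at chr11 position 11925896 (mm9) was the exception at 11.7%, and another in the same window at 11926835 had the highest mean, 79.9%. In the flanks, from 2 to 20 kb outside each window, 11 of 203 tested CpGs (5.42%) were at 20 to 80%, 138 were below and 54 above.

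The flanks differed between loci. To the right of Grb10, 90 CpGs averaged 3.87%, and to the right of Zrsr1, 50 CpGs averaged 3.49%. At Peg10 both sides were methylated, with 96.0% over 4 CpGs on the left and 95.8% over 19 on the right, and 6 CpGs left of Peg3 averaged 96.4%. Impact had an unmethylated left flank, 4.30% over 4 CpGs, and a methylated right flank, 96.9% over 4 CpGs. The windows thus had unmethylated flanks at some loci and methylated flanks at others. The remaining flanks held 1 to 14 tested CpGs a side, or none. No mm9 annotation was used here, so the windows were not placed against exons or introns.

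**Figure D1:**
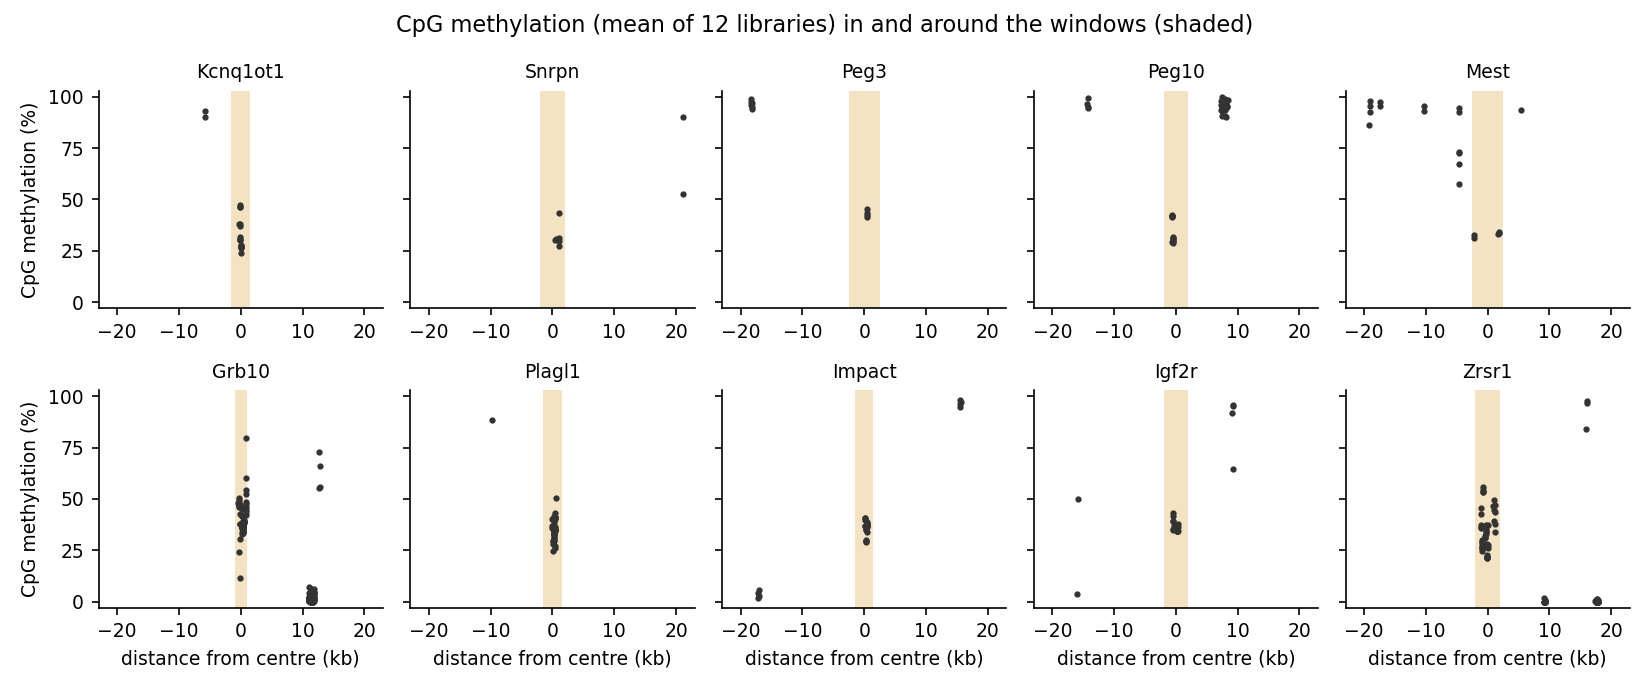
Methylation level (%) of each tested CpG, as the mean of 12 libraries, by its distance in kb from the centre of the window (shaded), with the flanks to both sides. Of the 233 points inside windows, 232 lie between 20% and 80%, and most flank points lie near the ends of the scale.

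Among the 10 windows, levels in single libraries were mostly below an even share. Of 120 levels (10 windows in 12 libraries), 113 were under 50% and 7 at or over it. The lowest was 13.8%, the median 35.9% and the highest 78.5%, and 29 lay between 40% and 60%. Window levels rested on 283 (Mest) to 13407 (Plagl1) CpG readings in a library. A read was counted once for each tested CpG it covers. The widest 95% Wilson interval of these counts reached 5.26 points to a side. CpGs on the same read are not independent, so the intervals of window levels are too narrow. Intervals and limits here cover counting error only, since no molecular identifiers are named and PCR copies count as reads. Mitochondrial CpGs, which served as a check of conversion, read as methylated at 0.222% to 1%. Coverage summed over listed cytosines ran from 96300485 (Tet2 KO replicate 2) to 199736369 (leukemic replicate 1).

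**Figure D2:**
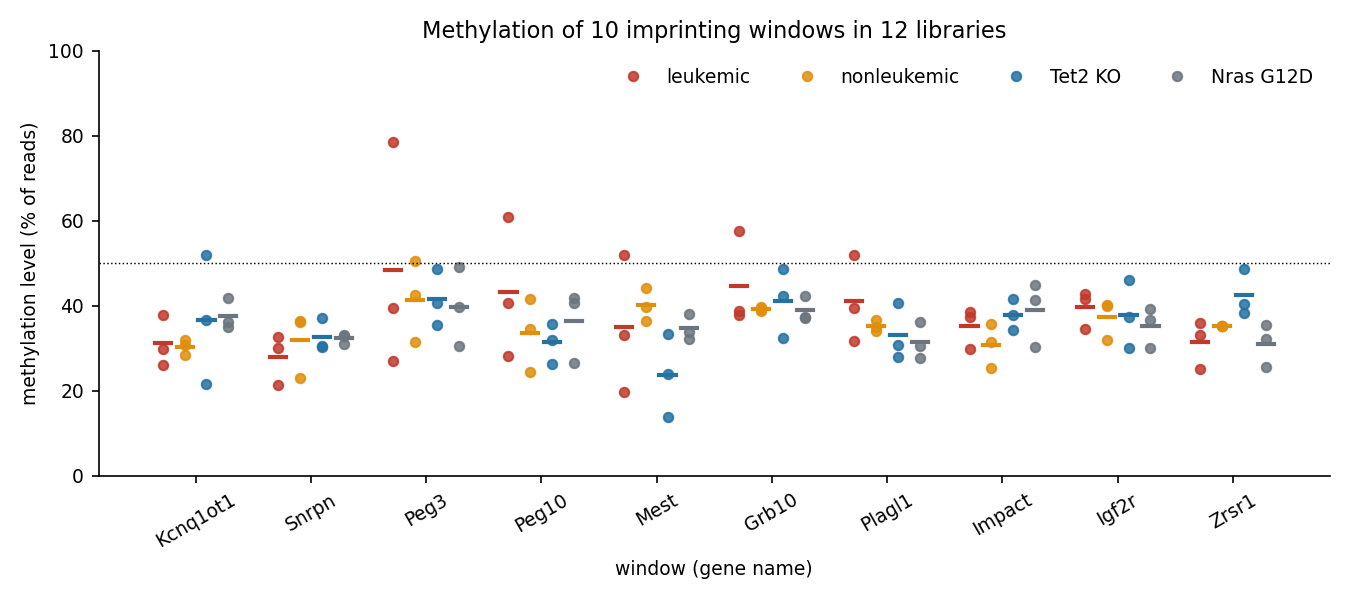
Methylation level (%) of the 10 windows in each library, with points for libraries, short bars for the mean of the 3 libraries of a group and a dotted line at 50%. Leukemic libraries range furthest at Peg3, where leukemic replicate 1 stands at 78.5%.

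The regions at noncoding RNA promoters are Kcnq1ot1 and Igf2r. Kcnq1ot1 is a long noncoding RNA read antisense to the potassium channel gene Kcnq1, and it silences neighbours such as the cell cycle inhibitor Cdkn1c on the paternal copy. Its window (chr7:150480000-150483000) held 17 CpGs, all tested. It was at 29.8%, 26.1% and 38.0% in leukemic, 30.7%, 31.9% and 28.5% in nonleukemic, 36.8%, 21.5% and 52.0% in Tet2 KO and 36.2%, 41.8% and 35.1% in Nras G12D libraries. The nonleukemic libraries all lay under the Nras G12D ones, while the Tet2 KO libraries held both the lowest and the highest level. Its CpG with the most reads, at 150481310, ran from 9.52% in Tet2 KO replicate 2 to 74.0% in Tet2 KO replicate 3. Igf2r is a receptor that removes the growth factor IGF2, and the control region in its second intron is the promoter of the antisense RNA Airn. The Igf2r window (chr17:12933000-12937000, 20 of 24 CpGs tested) averaged 39.7% ± 4.41 in leukemic, 37.4% ± 4.68 in nonleukemic, 37.8% ± 7.96 in Tet2 KO and 35.3% ± 4.63 in Nras G12D libraries (SD, n = 3 each). The groups overlapped in each pair, and the CpG with the most reads, at 12935242, had the group means 39.2%, 43.5%, 43.1% and 23.9% in that order.

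The next regions belong to genes for regulators of growth and transcription. Grb10 is an adaptor that restrains insulin and IGF receptor signalling. Its window (chr11:11925000-11927000) was the densest, with 65 of 101 CpGs tested, and stood at 57.6%, 38.8% and 37.8% in leukemic, 38.7%, 39.6% and 39.3% in nonleukemic, 42.2%, 48.6% and 32.4% in Tet2 KO and 37.2%, 37.1% and 42.4% in Nras G12D libraries. A single leukemic library, replicate 1, lay above the rest. Plagl1 is a zinc finger transcription factor that slows cell growth. Its window (chr10:12809000-12812000, 38 of 52 CpGs tested) had 51.8%, 31.8% and 39.5% in leukemic, 36.6%, 34.0% and 35.0% in nonleukemic, 40.6%, 30.7% and 28.0% in Tet2 KO and 30.5%, 36.1% and 27.7% in Nras G12D libraries. Again leukemic replicate 1 was highest, and the other leukemic libraries lay among or near the other groups. Peg3 is a zinc finger protein for which only the paternal copy is active. Its window (chr7:6680000-6685000) had just 4 of 15 CpGs tested, at 78.5%, 27.1% and 39.5% in leukemic, 42.5%, 50.5% and 31.5% in nonleukemic, 35.4%, 48.7% and 40.5% in Tet2 KO and 49.2%, 30.5% and 39.7% in Nras G12D libraries. Leukemic libraries held both ends of that range.

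Of the RNA-processing and translation genes, Zrsr1 encodes a relative of the splicing factor U2AF. Its window (chr11:22871000-22875000, 45 of 77 CpGs tested) was at 35.9%, 25.2% and 33.0% in leukemic, 35.3%, 35.2% and 35.2% in nonleukemic, 38.3%, 48.7% and 40.3% in Tet2 KO and 35.5%, 32.1% and 25.5% in Nras G12D libraries. All 3 Tet2 KO libraries were above the 9 others. Snrpn encodes a core protein of spliceosomal particles, and in human the same locus is involved in Prader-Willi syndrome. The Snrpn window (chr7:67147000-67151000, 6 of 20 CpGs tested) averaged 28.1% ± 5.97 in leukemic, 31.9% ± 7.67 in nonleukemic, 32.6% ± 3.99 in Tet2 KO and 32.4% ± 1.15 in Nras G12D libraries (SD, n = 3 each), with overlap in each pair. Impact encodes an inhibitor of the translation kinase Gcn2. Its window (chr18:13130000-13133000, 21 of 28 CpGs tested) had 37.4%, 38.6% and 29.7% in leukemic, 35.6%, 31.6% and 25.4% in nonleukemic, 41.6%, 37.8% and 34.3% in Tet2 KO and 30.3%, 45.0% and 41.5% in Nras G12D libraries. The lowest of these levels was nonleukemic replicate 3, and each pair of groups overlapped.

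Peg10 and Mest are expressed from the paternal copy, Peg10 being derived from a retrotransposon and required for the placenta, and Mest belonging to a family of hydrolases. The Peg10 window (chr6:4696000-4700000, 12 of 26 CpGs tested) averaged 43.2% ± 16.5 in leukemic, 33.5% ± 8.66 in nonleukemic, 31.4% ± 4.75 in Tet2 KO and 36.4% ± 8.57 in Nras G12D libraries (SD, n = 3 each). Its lowest level was 24.4% in nonleukemic replicate 1 and its highest 60.9% in leukemic replicate 3. The Mest window (chr6:30685000-30690000, 5 of 28 CpGs tested) was at 51.9%, 33.1% and 19.8% in leukemic, 36.3%, 39.7% and 44.2% in nonleukemic, 33.3%, 13.8% and 23.9% in Tet2 KO and 33.8%, 32.1% and 38.1% in Nras G12D libraries. The nonleukemic libraries all lay above the Tet2 KO libraries, and the leukemic ones spanned both.

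The CpG with the most reads in each of the other 8 windows gave the same picture of wide single-library values. At Zrsr1 it was position 22871952, with 30.8% ± 14.9 in leukemic, 45.8% ± 12.1 in nonleukemic, 63.9% ± 20.4 in Tet2 KO and 41.2% ± 8.46 in Nras G12D libraries (SD, n = 3 each), from 13.8% in leukemic replicate 1 to 87.4% in Tet2 KO replicate 2. The Plagl1 CpG at 12810743 ran from 22.2% to 53.7%, the Grb10 CpG at 11926217 from 6.11% to 49.4% and the Impact CpG at 13131689 from 26.1% to 51.7%. In the sparsely read windows the ranges were 0% to 53.1% at Snrpn position 67149488, 24.8% to 80.5% at Peg3 position 6683001, 27.4% to 72.5% at Peg10 position 4697355 and 16.5% to 70.7% at Mest position 30689288. The 0% at Snrpn was leukemic replicate 1, and the highest values at Peg3, Mest, Grb10 and Plagl1 were that library too.

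The 155 CpGs of the windows that were not tested lacked 10 reads in at least 1 library. They were listed in a median of 2 libraries, 77 of them in 1 and 34 in 11. Their 704 listed values had a median of 35.0%, near that of the tested CpGs, but not in every window. The median was 100% at Peg10, 0% at Igf2r and 56.9% at Impact, where these CpGs were listed in a median of 1 library. It was 29.2% to 40.5% at the other windows with untested CpGs. No CpG of the windows was left out for high coverage, and ending the windows 1 kb later would add 0 CpGs.

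The first comparison between groups was the leukemic with the nonleukemic double mutant, which share their genotype label. None of the 10 windows and none of their 233 CpGs was called. The leukemic mean was higher in 7 windows and lower in 3, by -5.17 points (Mest) to 9.74 points (Peg10), with a median of 3.32 points. Both ends rested on single libraries: without leukemic replicate 3, Peg10 was at 0.894 points and Mest at 2.39 points, and without leukemic replicate 1 Mest was at -13.6 points. Over the 6 comparisons, 34 of the 60 window differences turned direction when some single library of the pair was left out. With each CpG of a window weighted equally, leukemic was lower than nonleukemic at Kcnq1ot1 (-3.54 points) and Igf2r (-0.131 points) as well. The other windows kept their direction. Regions were tested with a quasi-binomial model of summed methylated reads over the 10 windows and 81026 other tiles of 1 kb, and called where the difference reached 10 points with a Benjamini-Hochberg adjusted p below 0.05. The smallest adjusted p of a window was 0.270, at Plagl1, where the difference of 5.82 points was 0.419 points without leukemic replicate 1 (41.0% ± 10.1 in leukemic and 35.2% ± 1.32 in nonleukemic libraries, SD, n = 3 each), and 0 windows had an unadjusted p under 0.05, against 22.4% of regions. In all regions 3.99% were called, nearly all of them lower (3.88%, with 0.11% higher). At that share fewer than 1 of 10 windows would be called, so the count of 0 does not set the windows apart. Libraries of the groups did not overlap in 22.4% of regions and overlapped in each of the 10 windows. A CpG needed 25 points and an adjusted p below 0.05, which 0.0124% of the whole table met. This share depends on the fit, since the spread was hardly moderated across all CpGs (0.41 prior degrees of freedom). With only CpGs of a mean of 2 to 98%, added after the data had been seen (11.5 prior degrees of freedom), 1.04% of 397120 CpGs were called and 0 of the 233. An unadjusted p under 0.05 was found at 10 of the 233 CpGs (4.29%), against 11.9% of all.

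With all 12 libraries and reads summed over each window, the lower methylation of leukemic libraries at other partly methylated regions was not seen in the windows. This is a description, and the difference between windows and other regions was not tested. Over the 10968 tiles with a mean of 20 to 80%, the leukemic minus nonleukemic difference had a median of -7.96 points, and 8798 of them were lower in leukemic. Over the 523 tiles with a mean of 20 to 50% and at least 10 CpGs, which resemble the windows more, the median was -4.59 points and 388 were lower. These classes use the mean over all libraries, the leukemic ones included. The median of the 10 windows rested on leukemic replicate 1. Without it, 5 windows were higher and 5 lower, with a median of -0.026 points. The 10968 tiles then stayed at -8.47 points and the 523 at -5.30 points. Without 4 libraries described below, which leaves leukemic replicate 2 only, the windows' median was -1.91 points, with 4 higher and 6 lower. The 10968 tiles were then at -8.85 points and the 523 at -5.23 points. Averaged over the 10 windows, leukemic libraries were at 43.5%, 33.6% and 36.3%, nonleukemic at 34.9%, 36.02% and 35.7%, Tet2 KO at 36.9%, 34.2% and 36.4% and Nras G12D at 36.7%, 34.5% and 35.8%. Leukemic replicate 1 was the highest of the 12, and the other 11 lay within 33.6% to 36.9%. With each CpG of a window weighted equally, leukemic libraries averaged 44.1%, 32.9% and 32.4%, and libraries of the other groups 34.5% to 37.0%. Leukemic replicates 2 and 3 were then the lowest of the 12. The same libraries averaged 50.6% ± 1.04 in leukemic, 60.1% ± 0.370 in nonleukemic, 61.7% ± 1.57 in Tet2 KO and 57.3% ± 0.353 in Nras G12D at the 10968 partly methylated tiles (SD, n = 3 each), where each leukemic library was below every other.

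**Figure D3:**
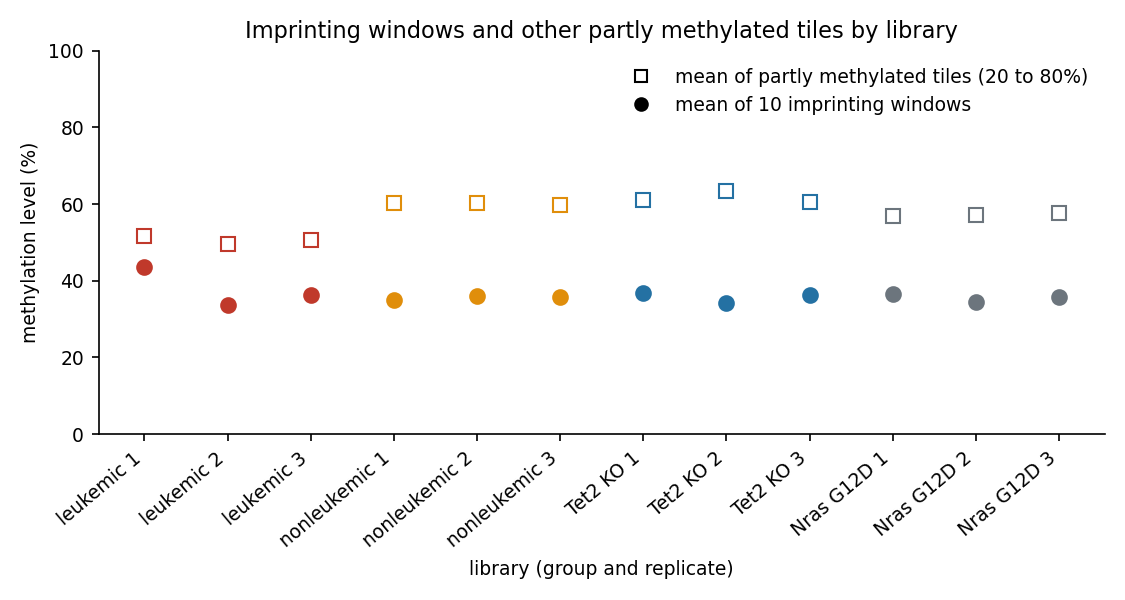
Mean methylation (%) of the 10 windows and of the 10968 other partly methylated tiles in each library, with filled circles for the windows and open squares for the tiles. Leukemic libraries lie lowest at the tiles (50.6% on average), while at the windows the groups overlap.

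Against Tet2 KO, the Zrsr1 window came closest to a call. It averaged 31.4% ± 5.55 in leukemic and 42.5% ± 5.53 in Tet2 KO libraries (SD, n = 3 each), a difference of -11.1 points with no overlap between the libraries and an adjusted p of 0.0702 (quasi-binomial model). No window was called, in a background of 7.68% of regions called (7.52% lower), and the libraries did not overlap in 1 of 10 windows against 21.4% of regions. Unadjusted p was under 0.05 at Zrsr1 (0.00915) and at Plagl1 (0.0258), where leukemic libraries averaged 41.0% ± 10.1 and Tet2 KO libraries 33.1% ± 6.64, 7.95 points apart. The Plagl1 difference was 2.54 points without leukemic replicate 1 and 12.6 points without leukemic replicate 2. These 2 of 10 windows compare with 27.7% of regions. The limits of these near-calls were narrow. Zrsr1 was called, at an adjusted p of 0.0266 in the quasi-binomial model, without leukemic replicate 1. Plagl1 was called at 0.0464 without leukemic replicate 2, and no window was called in limma. Zrsr1 fell short of 10 points without Tet2 KO replicate 2 (-7.93 points) or leukemic replicate 2 (-7.985 points). It was at -11.9 to -13.4 points without any other single library, and at -8.18 points with CpGs weighted equally. Leukemic means were higher in 6 windows and lower in 4, with a median of 2.75 points against -9.51 points over the 10968 tiles. Without leukemic replicate 1 the windows' median was -1.99 points, with 4 higher and 6 lower.

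No CpG of the windows was called between leukemic and Tet2 KO libraries, in a background of 0.047%, and 27 of 233 (11.6%) had an unadjusted p under 0.05, against 12.6% of all. The fit on CpGs with a mean of 2 to 98% called 4 of them, in a background of 2.6%. All 4, at 11926241, 11926249, 11926251 and 11926259 in the Grb10 window, lie within 18 bases on the minus strand and were read by the same reads, so they are 1 observation. The run of reads that holds them was at 2.87%, 8.73% and 30.8% in leukemic libraries, against 30.4%, 82.0% and 77.5% in Tet2 KO libraries. Elsewhere it was at 28.9%, 32.4% and 21.9% in nonleukemic and 44.1%, 27.9% and 6.73% in Nras G12D libraries.

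Between leukemic and Nras G12D libraries, Plagl1 differed most by p. The leukemic mean was 41.0% ± 10.1 and the Nras G12D mean 31.5% ± 4.29 (SD, n = 3 each), 9.56 points higher, with an unadjusted p of 0.0122 and an adjusted p of 0.137 in the quasi-binomial model. That difference was 4.15 points without leukemic replicate 1 and -1.56 points without 4 libraries described below. At Peg3 it was 8.56 points, but -6.49 points without leukemic replicate 1. At Kcnq1ot1 it was -6.41 points, and -3.83 to -9.75 points without leukemic replicate 2 or 3. No window was called against 2.07% of regions (1.98% lower), no window was free of overlap against 17.6% of regions, and no CpG was called, as in the whole table (0.0%). The fit on CpGs with a mean of 2 to 98% called 0.528% of CpGs and 0 of the 233. At an unadjusted p under 0.05 there were 1 window, against 19.5% of regions, and 21 CpGs (9.01%), against 11% of all. The 10 windows had a median of 2.37 points, with 7 higher, against -5.56 points over the 10968 tiles. Without leukemic replicate 1 the windows' median was -1.44 points, with 3 higher.

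In the comparison of the nonleukemic double mutant with Tet2 KO, the libraries did not overlap at Mest and Zrsr1. Mest averaged 40.1% ± 3.96 in nonleukemic and 23.6% ± 9.75 in Tet2 KO libraries, 16.5 points apart (SD, n = 3 each). The Mest difference was 11.5 points without Tet2 KO replicate 2 and 21.3 points without Tet2 KO replicate 1. Zrsr1 averaged 35.2% ± 0.0430 in nonleukemic and 42.5% ± 5.53 in Tet2 KO libraries, a difference of -7.24 points, or -4.10 points without Tet2 KO replicate 2. Neither was called, with unadjusted p of 0.0722 and 0.0608 and adjusted p of 1 in the quasi-binomial model. With 2 of 10 windows free of overlap, against 11.2% of regions, and 0.0% of regions and 0.0% of CpGs called, the windows did not stand apart from the whole table. No window (3.36% of regions) and 7 of 233 CpGs (5.38% of all) had an unadjusted p under 0.05. The other 8 windows differed by -7.07 points (Impact) to 2.13 points (Peg10), and the median of all 10 was -0.565 points.

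The nonleukemic double mutant was also compared with Nras G12D alone. Impact averaged 30.9% ± 5.16 in nonleukemic and 38.9% ± 7.68 in Nras G12D libraries (SD, n = 3 each), -8.04 points, and was the 1 window with an unadjusted p under 0.05 (2.85% of regions), at 0.0479 and an adjusted p of 1 in the quasi-binomial model. Its difference was -5.01 points without Nras G12D replicate 2, -5.30 points without nonleukemic replicate 3 and -12.4 points without Nras G12D replicate 1. Kcnq1ot1 averaged 30.4% ± 1.75 in nonleukemic and 37.7% ± 3.63 in Nras G12D libraries and was the 1 window without overlap, against 12% of regions, with an unadjusted p of 0.158. No window was called (0.00247% of regions) and no CpG (0.000436%), and 5 CpGs had an unadjusted p under 0.05 (5.36% of all). The remaining windows differed by -2.91 points (Peg10) to 5.43 points (Mest).

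Tet2 KO and Nras G12D, the single mutants, differed most at Zrsr1 by p. Tet2 KO libraries averaged 42.5% ± 5.53 and Nras G12D libraries 31.0% ± 5.10 (SD, n = 3 each), 11.4 points higher without overlap, with an unadjusted p of 0.00707 and an adjusted p of 0.824 in the quasi-binomial model. It was the 1 window of 10 without overlap, against 11.4% of regions, and the 1 with an unadjusted p under 0.05, against 5.96% of regions. Mest ran the other way, with 23.6% ± 9.75 in Tet2 KO and 34.7% ± 3.10 in Nras G12D libraries, -11.03 points (-6.10 points without Tet2 KO replicate 2), and overlap between the groups. No window was called (0.0% of regions) and no CpG (0.000436%), and 3 CpGs had an unadjusted p under 0.05 (5.83% of all). The median of the 10 windows was 0.938 points, against 3.88 points over the 10968 tiles. Without Tet2 KO replicate 1 the windows' median was -1.49 points, with 4 higher and 6 lower, and without Nras G12D replicate 3 it was 0.027 points. The comparisons share libraries, so Zrsr1 in Tet2 KO enters 3 of them and is not repeated evidence.

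Spread between libraries was large beside these differences. Within groups the SD of a window had a median of 6.77 points over the 10 windows, from 4.68 (Zrsr1) to 15.3 (Peg3). The Wilson half-widths of window levels, up to 5.26 points, are not a limit on counting error, since CpGs on the same read are not independent. A half-width is also not an SD, so the part of counting error in this spread was not tested. The 957 partly methylated tiles with at least 10 CpGs had a median of 6.36 points, the 10968 partly methylated tiles 8.43 and all other tiles 3.76. Leukemic libraries had the largest SD of the 4 groups in 6 of the 10 windows, with a median of 8.09 points, against 4.32 in nonleukemic, 6.67 in Tet2 KO and 4.46 in Nras G12D libraries. The most even case was Zrsr1 in the nonleukemic group, with an SD of 0.0430 points, and the least even Peg3 in the leukemic group, with 26.8 points.

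Reads of 50 bases from a fixed cut site pile up into runs that share their reads, and the spread lay between these runs and not within them. A run (a read stack in the plots) was defined, after the data had been seen, as tested positions on the same strand within 50 bases whose coverage agreed within 20% in at least 10 libraries. The windows held 58 runs with 249 positions, from 1 in Peg3 to 18 in Zrsr1, and 51 runs had at least 2 positions. Within a run, neighbouring CpGs agreed closely: the median SD was 0.517 (Tet2 KO replicate 2) to 2.76 points (leukemic replicate 2). Between runs of the same library, the SD was 11.3 points in nonleukemic replicate 2 and up to 28.7 points in Tet2 KO replicate 2. Counting error at the runs' depth would give 4.94 to 7.54 points.

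In all, 4 of the 12 libraries stood apart by this measure. Between-run SDs were 27.0 points in leukemic replicate 1, 27.6 in leukemic replicate 3, 28.7 in Tet2 KO replicate 2 and 20.8 in Nras G12D replicate 3, and 11.3 to 16.7 points in the other 8. The same 4 were highest when each run was set against its mean over the other 11 libraries, with SDs of 20.9 to 26.8 points against 11.1 to 17.3 points. Expressed as the number of independent draws that would give this variance at the library's mean level, the 4 libraries had 3.36, 2.96, 2.93 and 5.35 draws in that order, with median depths of 132, 92.7, 54.2 and 79.1 reads. For the other 8 the number was 8.42 to 18.2. The 4 libraries were picked by a between-run SD over 20 points. The comparison with the other 11 libraries and the draws reuse the same run values, so neither is separate support. The between-run SDs and the draws also hold differences between runs that all libraries share. Run means over the 12 libraries ran from 19.2% to 63.8%. Leukemic replicate 1 was the most deeply read library and Tet2 KO replicate 2 the least; the part of depth in this spread was not tested.

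**Figure D4:**
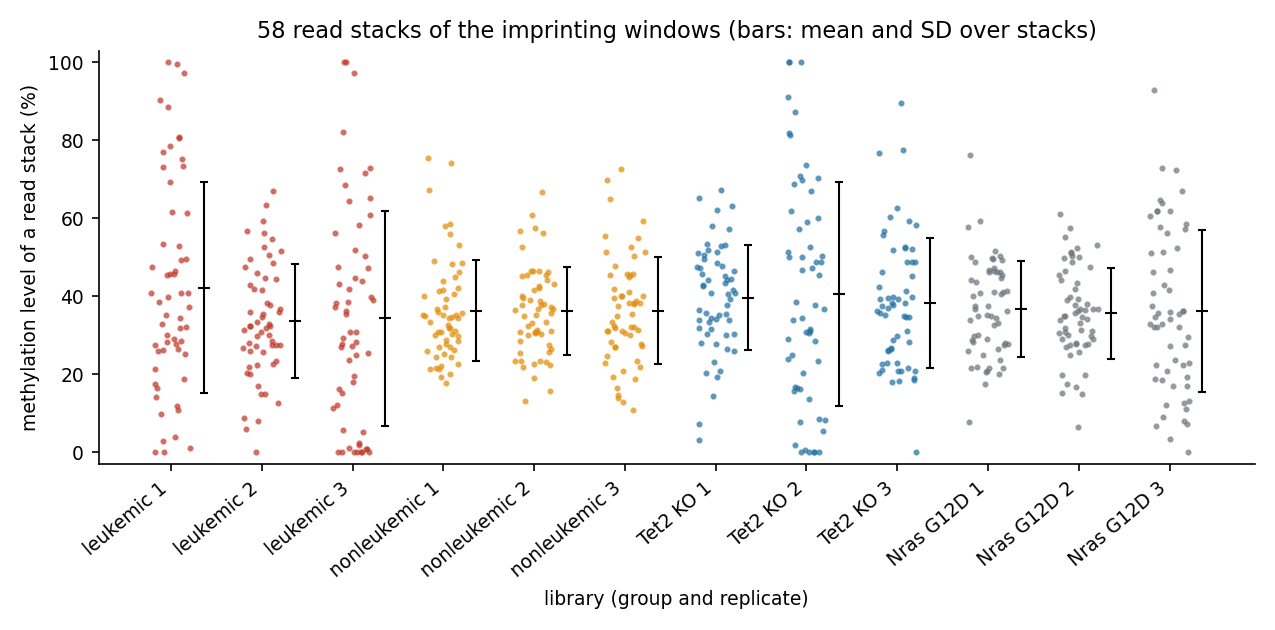
Methylation level (%) of 58 runs of shared reads in the windows, by library, with points for runs and bars for the mean and SD over runs. Leukemic 1, leukemic 3, Tet2 KO 2 and, less so, Nras G12D 3 spread over most of the scale.

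Single runs in these libraries reached the ends of the scale. Of 696 values, 38 were under 5% or over 95%, and 35 of the 38 were in the 4 libraries named. These libraries were picked by the spread of the same values, so this count is not separate support. In leukemic replicate 3 a run in the Igf2r window starting at 12935102 was at 0% in about 80 reads, which allows up to 3.75%, and a run at Impact from 13131881 to 13131929 was at 100% in about 44 reads (95% Wilson interval 92.0% to 100%). In leukemic replicate 1 a run at Plagl1 from 12810846 was at 0% in about 165 reads, which allows up to 1.82%, and a run at Zrsr1 from 22872184 was at 100% in about 70 reads (94.8% to 100%). That Zrsr1 run was at 100% in Tet2 KO replicate 2 too, in about 51 reads (93.0% to 100%). Other runs of the same windows in the same libraries lay at intermediate levels, so no window as a whole reached 0% or 100%. Read counts are means over the run's positions.

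**Figure D5:**
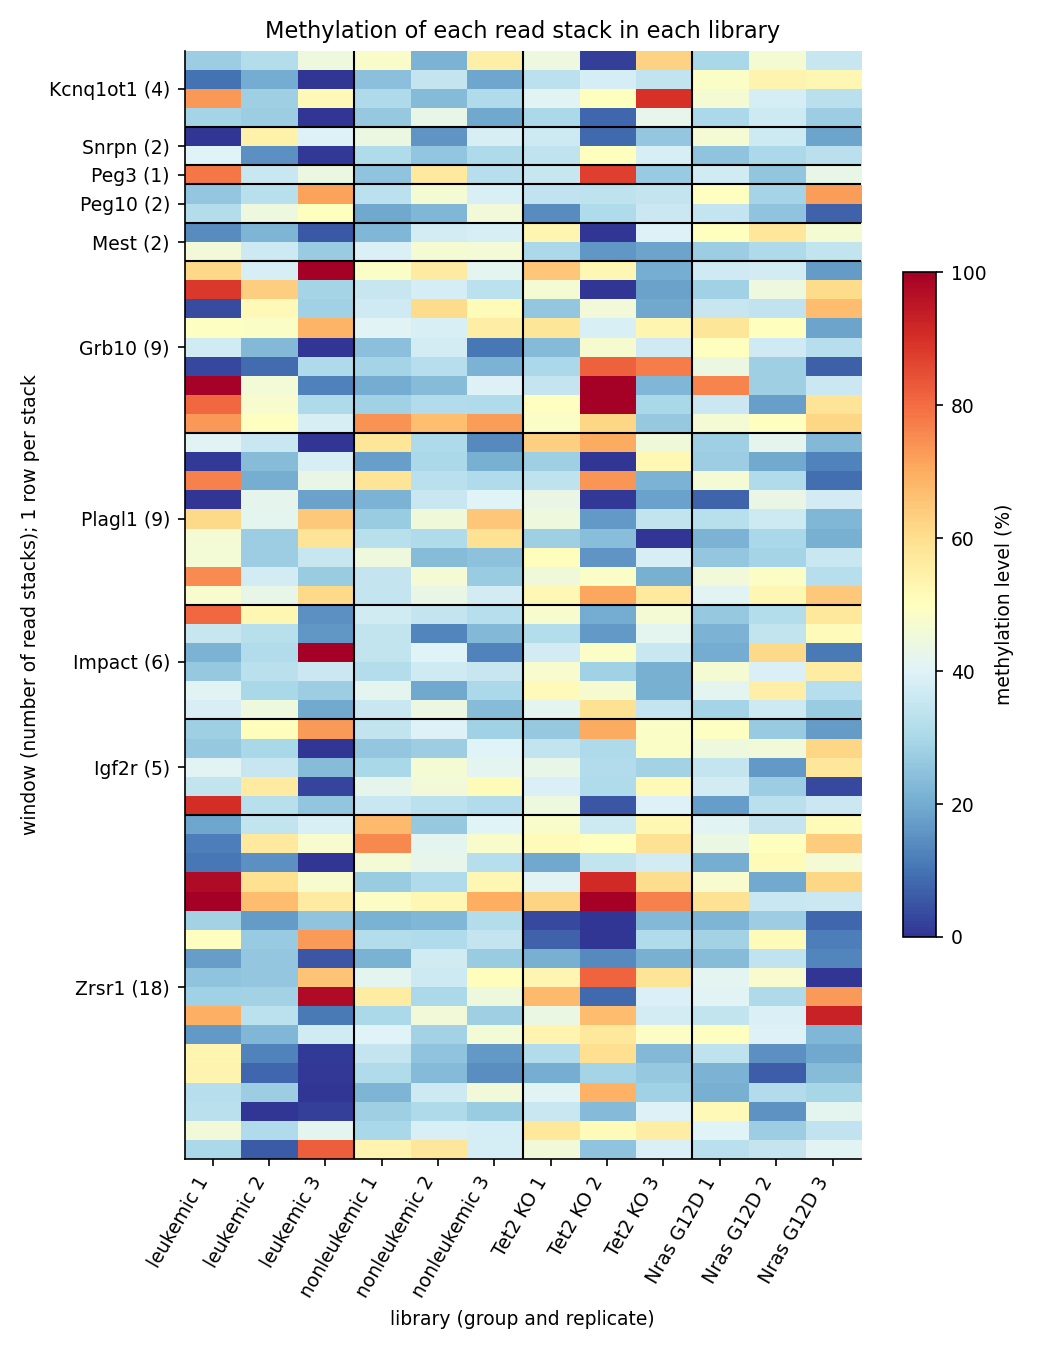
Methylation level (%) of the 58 runs (rows, grouped by window) in the 12 libraries (columns). The deepest blue (low) and deepest red (high) cells fall mostly in 4 libraries, leukemic 1, leukemic 3, Tet2 KO 2 and Nras G12D 3, which hold 35 of the 38 values under 5% or over 95%.

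The number of runs moved with the evenness of a window. The 4 windows with 1 or 2 runs, Snrpn, Peg3, Peg10 and Mest, had SDs over the 12 libraries of 4.90 to 13.5 points with a median of 10.3. The 6 windows with 4 to 18 runs had 5.06 to 7.95 points with a median of 6.37, and Snrpn was the exception among the sparse windows at 4.90 points. This is a description of 10 windows that share libraries. Without the 4 libraries, a choice made after the data had been seen, the 80 remaining levels ran from 23.03% to 52.0% with a median of 35.6%, and 2 reached 50% or more. The level below an even share was therefore as large without them. In that set the leukemic group keeps replicate 2 only, and Zrsr1 was called against Tet2 KO (-14.1 points, adjusted p = 0.00546 in the quasi-binomial model) and against the nonleukemic group (-10.0 points, adjusted p = 0.0124), with the lone library assumed to vary like the other groups. Zrsr1 in Tet2 KO against Nras G12D was then 5.50 points apart, in place of 11.4, and was not called.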

How the data were processed

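Reduced representation bisulfite sequencing was done after digestion with MspI and selection of 150 to 400 bp fragments, with 50 bp single-end reads, per the labels' protocols. The submitters' processing notes name Bismark (no version) and the build mm9 (NCBIM37). The deposited tables give, per CpG and strand, the coverage as a count of reads (at least 10) and the percent of C and T, as made by the authors. From these, methylated and unmethylated reads were computed and rounded, reads with another base were left out, and strands were added. Tests used autosomal CpGs with at least 10 reads in all 12 libraries and outside the top 0.1% of coverage. Window levels are summed methylated over summed reads of the tested CpGs, so a read counts once for each CpG it covers.

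Regions (the windows and 1000 bp tiles with at least 3 tested CpGs, outside the windows) and CpGs were tested on the group with a quasi-binomial model fitted to the 12 libraries together (8 residual degrees of freedom). Dispersions (Pearson) were moderated as in limma's squeezeVar and floored at 1, each contrast was an F test, and p-values were adjusted by Benjamini-Hochberg over all 81036 regions or 916381 CpGs. Alternatives were a minimum of 20 reads, no coverage limit, limma on log2((methylated + 1)/(unmethylated + 1)), only the groups compared, a replicate block, no minimum difference, other window ends, other window levels and each replicate left out. All 10 windows were named, single CpGs where called (at most 5 a contrast), and per window the partly methylated CpG with the most reads. The windows and tests were chosen with earlier results of these data known. No 2 of the libraries held identical values (66 pairs). Promoters are from RefSeq (GRCm38.p6). Software was R 4.3.3, limma 3.58.1, Python 3.11.15, pandas 2.3.3, SciPy 1.17.1, NumPy 2.4.6 and matplotlib 3.10.9.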

Additional observations from a re-analysis of the deposited data

How the results depend on the processing

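The count of windows called was 0 in all 6 comparisons and in 132 of the 138 values recomputed under alternatives. It was 1 for leukemic against Tet2 KO with at least 20 reads in every library (Zrsr1, adjusted p = 0.0183 in the quasi-binomial model) and, as settings chosen after the data had been seen, with only regions of a mean of 2 to 98% (Zrsr1, 0.0346) and without the 4 libraries with a wide spread between runs (Zrsr1, 0.00546). Without these 4 it was also 1 for leukemic against nonleukemic (Zrsr1, 0.0124). Leaving out each replicate gave 0 to 1 for leukemic against Tet2 KO (1 without leukemic replicate 1, Zrsr1, and 1 without leukemic replicate 2, Plagl1) and 0 for the other comparisons. CpGs called in the windows changed only from 0 to 4, for leukemic against Tet2 KO at a mean of 2 to 98%; the other 119 recomputed counts stayed at 0. The cause of these changes was not tested. Limma's smallest adjusted p was 0.462 for windows and 0.166 for CpGs. Of 1140 recomputed window differences, 20 moved by more than the spread between replicates, among them Plagl1 leukemic minus nonleukemic, which was -3.42 points without the 4 libraries against 5.82 points with all. The median of the window levels moved within 35.4% to 36.1%, against 35.9%.

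With the replicate number as a block, 0 windows and 0 CpGs were called, with smallest adjusted p of 0.0851 and 0.0613 in the quasi-binomial model. The labels do not say that numbers pair libraries, and same-numbered libraries correlated by -0.036 to 0.041 over 18 pairs, against -0.056 to 0.042 for others. For 7 of the 12 libraries, the mean correlation with libraries of the other groups was highest for their own number. Whether 7 is more than unpaired numbers would give was not tested. Windows with few tested CpGs (Peg3, Mest and Snrpn, 4 to 6) rest on 1 or 2 runs of reads, and 3 libraries a group limit what the model can call.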

Other observations

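At 26 CpGs of the windows both strands were read in all libraries, by different reads. The median absolute difference between the strands was 45.0 points in leukemic replicate 1, 5.92 in leukemic replicate 2 and 11.1 in leukemic replicate 3. It was 9.02 to 15.7 points in the nonleukemic, 5.85, 47.5 and 18.8 points in the Tet2 KO (replicates 1 to 3) and 8.72 to 16.1 points in the Nras G12D libraries. The widest single differences were 87.5 points in leukemic replicate 1 and 91.9 points in Tet2 KO replicate 2.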
